A study of Mus musculus with 26 samples.

Results

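The genes described here are 10 members of the ADAM and ADAMTS families of mouse: Adam12, Adam19, Adamts1, Adamts2, Adamts4, Adamts5, Adamts9, Adamts12, Adamts15 and Adamtsl1. They were chosen by symbol from the 24421 gene rows of the count tables, as proteases raised by injury set beside proteases of the resting heart, and all 10 passed the filter on low counts. Bulk RNA sequencing had been done on stromal cells sorted from dissociated mouse hearts, without the blood and endothelial markers CD45 and CD31 and with the nuclear green fluorescent protein of the Pdgfra reporter. The cells were split by the surface antigen Sca-1, a product of Ly6a, and taken from undamaged hearts or at day 7, 14 or 28 after the left anterior descending (LAD) artery of the heart was tied off, an operation that causes a myocardial infarct. All groups, controls included, carried the same reporter allele (genotype PDGFRa H2BEGFP+) on a C57BL/6 background, in the line labelled B6.129S4-Pdgfratm11(EGFP)Sor/J. Age and sex were not given, and undamaged hearts, not sham-operated hearts, were the controls.

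The 26 libraries comprised 9 of undamaged hearts (5 Sca-1 positive, 4 Sca-1 negative), 6 of day 7 (1 positive, 1 negative and 4 whose labels give no gate), 4 of day 14 (2 of each gate) and 7 of day 28 (4 positive, 3 negative). Nothing in the labels says which libraries came from separate animals, so p-values measure the spread between libraries. Library codes were of different kinds: 8 libraries have a letter and digit alone ("letter-coded", 5 undamaged and 3 of day 28), 16 have a code after a number ("number-coded", 4 at each time), and 2 of day 7 have neither. Some codes are shared by a positive and a negative library of the same time, as are both codes of day 14, D1 and D9. The fits as reported took such libraries as separate. Counts assigned to genes ranged from 6792786 to 48836726 per library. In 1 library, the Sca-1 positive E2 library of day 28, 55.8% of counted fragments fell in no gene, against 5.53 to 18.7% in the others. Ly6a ranged from 279.6 to 1284 counts-per-million units (CPM) in the 12 libraries labelled positive and from 18.8 to 91.9 CPM in the 10 labelled negative, with no overlap. The 5 fibroblast markers Pdgfra, Col1a1, Dcn, Tcf21 and Lum summed to 21833 to 28170 CPM in undamaged hearts, and 5 endothelial markers to 46.2 to 165 CPM.

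ADAM proteases are anchored in the cell membrane and cut the outer parts of other membrane proteins, a process called shedding. ADAMTS proteases are secreted, bind the extracellular matrix through thrombospondin repeats, and fall into groups by substrate: those that trim the amino-terminal propeptide from fibrillar procollagens, those that cut large hyaluronan-binding proteoglycans such as versican and aggrecan, and others. In the injured heart the matrix is rebuilt by activated fibroblasts, and collagen deposition and proteoglycan turnover are both part of that rebuilding.

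Both families are zinc metalloproteases with the same histidine-rich catalytic site. The coding sequence of that site is shown because it separates the proteases from the ADAMTS-like protein and divides them into groups. These groups were not tested against the expression data. Capitals mark the codons of the 3 zinc-binding histidines, the catalytic glutamate and the glycine or asparagine between the second and the last histidine, read 5′ to 3′ from the GENCODE transcripts of build GRCm38 (mm10).
Adam12: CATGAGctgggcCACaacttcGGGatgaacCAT
Adam19: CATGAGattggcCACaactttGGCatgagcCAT
Adamts2: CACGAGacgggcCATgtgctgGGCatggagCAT
Adamts5: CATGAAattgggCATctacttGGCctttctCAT
Adamts12: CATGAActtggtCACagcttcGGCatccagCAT
Adamts1: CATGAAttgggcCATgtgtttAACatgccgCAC
Adamts4: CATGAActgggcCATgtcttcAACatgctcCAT
Adamts9: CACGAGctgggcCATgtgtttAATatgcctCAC
Adamts15: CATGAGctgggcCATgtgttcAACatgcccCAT
The first 5 of these carry a glycine codon at the marked position and the other 4 an asparagine codon. No match was found in the coding sequence of Adamtsl1. Among the 33 bases, 28 were identical between Adam12 and Adam19, and 30 between Adamts4 and Adamts15. The sites of Adam12 (chr7:133961158-133961190, minus strand) and Adam19 (chr11:46125050-46125082, plus strand) each lie within exon 11 of a transcript of 23 exons. The other 7 sites are split by an intron. Adamts1 (chr16:85793827-85803113) and Adamts5 (chr16:85856173-85901828) are neighbours on the minus strand of chromosome 16 but lie in different groups of the site.

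At day 7, 5 of the 10 genes were higher than in undamaged hearts and 1 was lower, where 22.8% of the 13392 genes tested were called (11.5% higher and 11.2% lower). Adam12, Adamts12, Adamts9, Adamts2 and Adam19 rose, and Adamts5 fell. At day 14, 5 of 10 were higher and none was lower, where 8.98% of genes were called (5.84% higher, 3.14% lower): Adam12, Adamts9, Adamtsl1, Adamts12 and Adamts2. At day 28 Adam12 and Adamts2 were still higher, 2 of 10 where 5.39% of genes were called (3.45% higher, 1.94% lower). The median log2 difference of the 10 genes was 0.56, 0.96 and 0.54 at days 7, 14 and 28, against medians of -0.04, -0.03 and -0.00 over all genes tested. These 3 comparisons share the undamaged libraries. The 10 genes were chosen with earlier results of these data known. Their counts and medians beside those of all genes are therefore a description and not independent support. A gene was called at an adjusted p under 0.05, adjusted by Benjamini-Hochberg over all genes tested with the quasi-likelihood test of edgeR, and levels are CPM after trimmed-mean (TMM) scaling. In bulk RNA fewer cells of a type and less RNA per cell cannot be told apart.

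**Figure D1:**
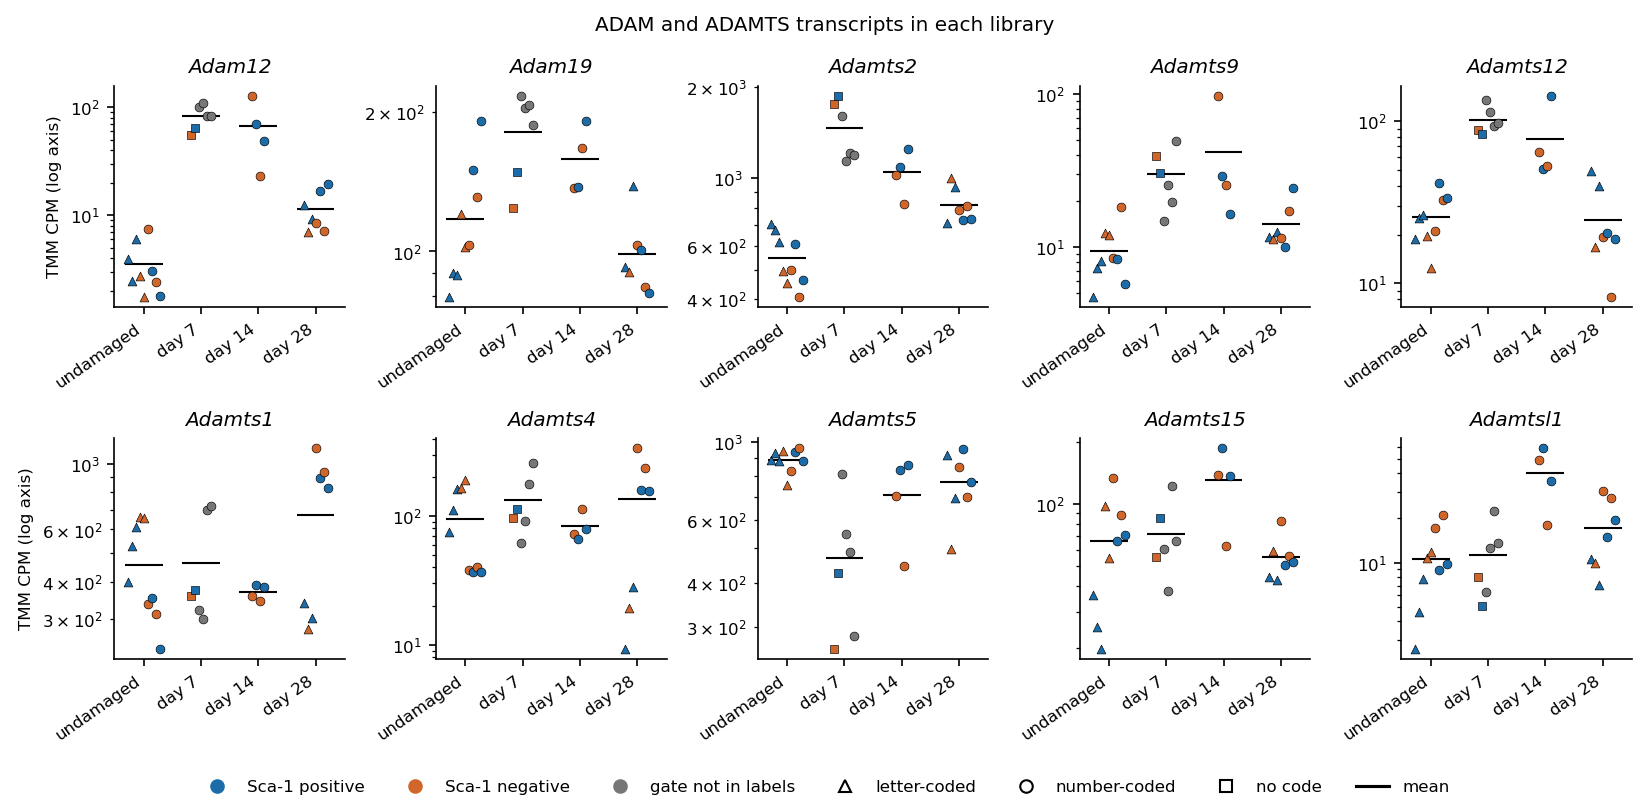
Level of each of the 10 genes in every library (TMM CPM, log axis) by time, with colour for the gate and shape for the kind of library code; each point is 1 library and the line is the mean. Adam12 sits between 1.74 and 7.45 CPM in undamaged hearts and between 55.0 and 109 CPM at day 7, with no overlap.

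Adam12, also called meltrin alpha, is a membrane sheddase that is low in most adult tissues. Its level in the 9 undamaged libraries was 1.74 CPM at the lowest, 2.73 at the median and 7.45 at the highest. At day 7 the lowest, median and highest were 55.0, 83.3 and 109 CPM, and the 4 day 14 libraries had 127, 70.6, 23.3 and 48.8 CPM. Every library of days 7 and 14 lay above every undamaged library. The difference from undamaged was 4.57 ± 0.34 on the log2 scale at day 7 (SE, adjusted p = 1.77e-10) and 4.28 ± 0.36 at day 14 (adjusted p = 7.07e-09). At day 28 Adam12 ranged from 6.94 to 19.6 CPM with a median of 9.31 CPM, overlapping the undamaged range at its lower end, and was 1.73 ± 0.32 higher (adjusted p = 0.0014). From day 7 to day 28 it fell by 2.85 ± 0.35 (adjusted p = 7.67e-06), in a comparison where 11.6% of genes were called (6.13% higher, 5.50% lower). The rise at day 28 was no longer called when limma-voom was fitted with the library code as a block (1.75, adjusted p = 0.0975).

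Adam19, or meltrin beta, is the closest relative of Adam12 in the set by its catalytic site, and is known as a sheddase of neuregulins. It was present before injury, at 79.7, 103 and 191 CPM (lowest, median, highest), and at 124, 196 and 216 CPM at day 7. The 2 ranges overlapped, since the positive number-coded undamaged libraries A6 and B7 had 150 and 191 CPM. Adam19 rose by 0.63 ± 0.17 at day 7 (adjusted p = 0.00762) and was 0.88 lower at day 28 than at day 7 (log2 difference -0.88 ± 0.18, adjusted p = 0.00185). Both depend on which libraries enter: the day 7 difference was 0.49 (adjusted p = 0.051) with number-coded libraries alone and 0.22 (adjusted p = 0.661) with gate as a term over the 22 libraries that have one, and the fall to day 28 was then -0.47 (adjusted p = 0.353). The day 14 libraries, at 137 to 191 CPM, did not differ from undamaged by the test (0.43 ± 0.19, adjusted p = 0.175), and were called without the 3 undamaged libraries in which the fewest genes were detected (0.60, adjusted p = 0.0268). Those 3 are all number-coded, as is every day 14 library, so leaving them out also changes the mix of codes. Number-coded libraries alone gave 0.13 at day 14 (adjusted p = 0.7). At day 28 number-coded libraries alone gave -0.66 (adjusted p = 0.0189), against -0.25 (adjusted p = 0.432) over all.

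**Figure D2:**
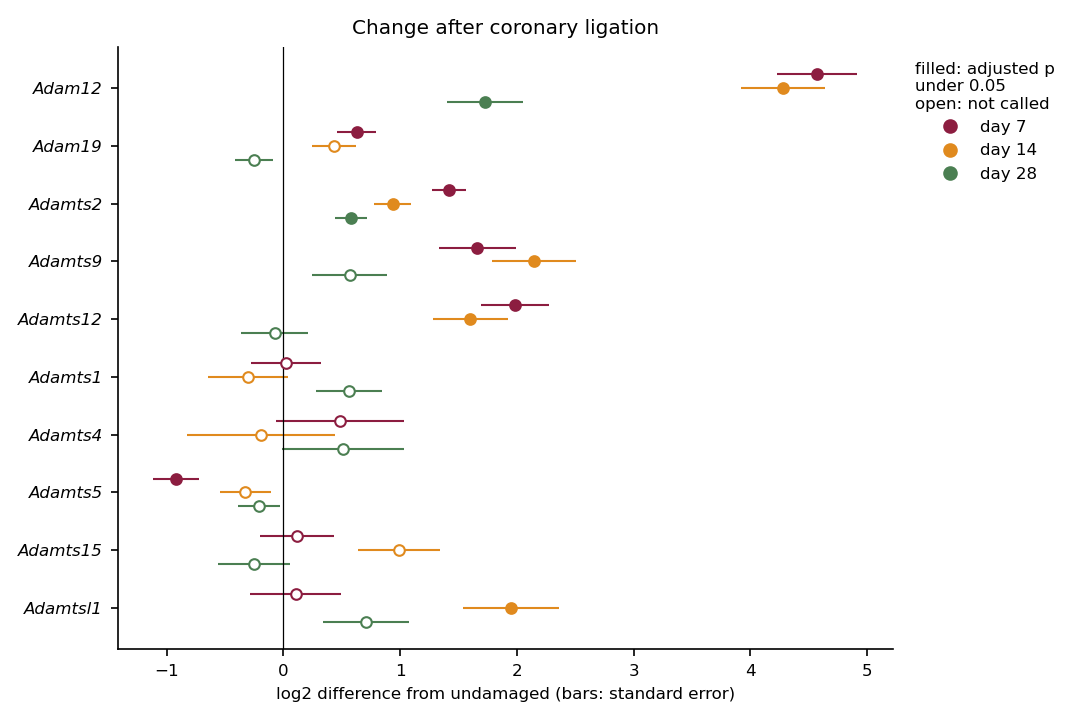
Log2 difference from undamaged at days 7, 14 and 28 for each gene (edgeR, bars are 1 SE, filled points have an adjusted p under 0.05). Adam12 and Adamts2 are filled at all 3 times, and Adamts5 lies below 0 at all 3 and is filled at day 7.

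Adamts2 is the main procollagen N-proteinase, which removes the amino-terminal propeptides of collagens I, II and III. Its lowest, median and highest levels were 406, 498 and 706 CPM in undamaged hearts, 1136, 1407 and 1864 CPM at day 7, and 714, 787 and 1005 CPM at day 28. The 4 day 14 libraries had 1021, 1089, 819.6 and 1249 CPM. No library of any injured group fell within the undamaged range. Adamts2 was 1.42 ± 0.14 higher at day 7 (adjusted p = 5.76e-08), 0.93 ± 0.16 higher at day 14 (adjusted p = 0.000265) and 0.58 ± 0.14 higher at day 28 (adjusted p = 0.0117). Between day 7 and day 28 it fell by 0.84 ± 0.15 (adjusted p = 7e-04). The day 28 rise missed the threshold without the 3 undamaged libraries in which the fewest genes were detected (0.45, adjusted p = 0.0525) and with letter-coded libraries alone (0.58, adjusted p = 0.0792).

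Fibrillar collagen genes were measured beside it, since their products are the substrates of this step. Of 10 tested genes of the procollagen processing list, 7 were higher and 2 lower at day 7, where 11.5% of all genes were higher and 11.2% lower. Col1a1 went from 4024 ± 538 CPM (SD, n = 9) to 30955 ± 6521 CPM (n = 6), a log2 difference of 2.94 ± 0.19 (adjusted p = 1.28e-11). Col3a1 rose by 2.62 ± 0.15 (adjusted p = 1.34e-12), Col1a2 by 2.59 ± 0.17 (adjusted p = 1.35e-11) and Col5a2 by 2.46 ± 0.17 (adjusted p = 3.16e-11). All 4 collagens were still higher at day 28, by 1.01 to 1.21. The list and its substrates were chosen with earlier results of these data known.

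Adamts12 is a secreted protease that can cut the cartilage oligomeric matrix protein, Comp. It was at 12.5, 25.4 and 41.8 CPM in undamaged hearts (lowest, median, highest) and at 83.1, 95.9 and 136 CPM at day 7. At day 14 its libraries had 64.8, 51.1, 53.3 and 143 CPM, so that no library of day 7 or 14 overlapped the undamaged ones. The differences were 1.99 ± 0.29 at day 7 (adjusted p = 1.51e-05) and 1.60 ± 0.32 at day 14 (adjusted p = 0.00126). By day 28 it ranged from 8.20 to 49.2 CPM, across the undamaged range (-0.07 ± 0.29, adjusted p = 0.922), and it had fallen by 2.06 ± 0.32 from day 7 (adjusted p = 0.000116). Its substrate Comp was higher at all 3 times, from 155 ± 68.8 CPM (SD, n = 9) to 885 ± 528 CPM at day 7 (n = 6) and 1348 ± 606 CPM at day 28 (n = 7), with log2 differences of 2.51 ± 0.38 (adjusted p = 2.01e-05) and 3.12 ± 0.37 (adjusted p = 7.91e-06).

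Adamts5 is the strongest known aggrecanase in mouse cartilage and also cuts versican. In undamaged hearts it had the smallest spread of the set relative to its mean, at 755, 884 and 957 CPM (lowest, median, highest). At day 7 its libraries had 260 CPM (negative), 426 CPM (positive), and 808, 548, 487 and 283 CPM in the 4 with no gate given. Of the 6, only 1A, at 808 CPM, reached the undamaged range. Adamts5 was lower at day 7, with a log2 difference of -0.92 ± 0.20 (adjusted p = 0.00116). At day 14 the positive libraries D1 and D9, at 832 and 858 CPM, were within the undamaged range and the negative ones, at 702 and 445 CPM, were below it (-0.33 ± 0.22, adjusted p = 0.438). At day 28 it ranged from 497 to 950.3 CPM (-0.21 ± 0.18 from undamaged, adjusted p = 0.586), and it had risen by 0.71 ± 0.20 since day 7 (adjusted p = 0.0226). That rise was lost without the negative day 7 library, without 4B or without the positive B4 library of day 28 (adjusted p of up to 0.0686), and with number-coded libraries alone (0.61, adjusted p = 0.117).

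Adamts9, a versican-cleaving protease that also acts in secretion and at the cell surface, was low before injury, at 4.70, 8.31 and 18.3 CPM. At day 7 its lowest, median and highest levels were 14.7, 28.0 and 49.4 CPM, and all but 1A exceeded every undamaged library. The day 14 libraries had 96.8 and 25.5 CPM in the negative gate and 29.1 and 16.3 CPM in the positive gate. Adamts9 was 1.66 ± 0.33 higher at day 7 (adjusted p = 0.000564) and 2.15 ± 0.36 higher at day 14 (adjusted p = 0.000172), and not called at day 28 (0.57 ± 0.32, adjusted p = 0.342). The negative D1 library set much of the day 14 size: the lowest value with 1 library left out was 1.32, and the call was kept with an adjusted p of at most 0.0132. At day 7 the number-coded libraries alone gave 1.40 (adjusted p = 0.0648). The fall from day 7 to day 28 (-1.09 ± 0.35, adjusted p = 0.0425) was lost in 10 of 26 fits that left out 1 library, with an adjusted p of up to 0.129.

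Adamts15, another versicanase with its site nearest to that of Adamts4, spread widely before injury, from 19.8 to 134 CPM with a median of 66.5 CPM. Its day 7 range, 37.8 to 123 CPM, lay within the undamaged one (0.11 ± 0.32, adjusted p = 0.834). The day 14 libraries had 186 and 137 CPM in the positive gate, above every undamaged library, and 138 and 62.6 CPM in the negative gate. Over both gates the day 14 difference missed the threshold in edgeR (0.99 ± 0.35, adjusted p = 0.0784). Adamts15 was called at day 14 by DESeq2 (adjusted p = 0.048), by limma-voom (1.17, adjusted p = 0.0457), with gate as a term (1.09, adjusted p = 0.0397) and without the 3 undamaged libraries with few genes (1.40, adjusted p = 0.00955), and was not called with number-coded libraries alone (0.53, adjusted p = 0.367). The 3 libraries left out are number-coded, as is every day 14 library.

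Adamtsl1, or punctin-1, is a secreted matrix protein that shares the thrombospondin repeats of the ADAMTS family but has no protease domain. It was at 2.59, 9.79 and 20.99 CPM in undamaged hearts and at 5.06 to 22.3 CPM at day 7 (0.11 ± 0.39, adjusted p = 0.875). At day 14 it had 49.1 and 17.99 CPM in the negative and 59.2 and 35.6 CPM in the positive libraries, and only the negative D9 library was within the undamaged range. The day 14 difference was 1.95 ± 0.41 (adjusted p = 0.00238), and Adamtsl1 was the only one of the 5 genes called at day 14 that was not called at day 7. The step from day 7 to day 14 itself was 1.84 ± 0.46 (adjusted p = 0.108). In that comparison 0 of 10 genes were called, where 0.0149% of all genes were, 1217 genes had an unadjusted p under 0.05, and DESeq2 and limma-voom each called Adamtsl1 alone of the 10. Its annotated gene overlaps Sh3gl2 on the same strand, so reads in the shared part cannot be told apart.

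Adamts1 and Adamts4 were not called at any time over all libraries by edgeR, and their libraries were divided by the kind of library code. Adamts1 is a versicanase known as an inhibitor of blood vessel growth, and Adamts4 is an aggrecanase; both are known to respond quickly to inflammatory signals. Adamts1 ranged from 236 to 662 CPM in undamaged hearts, 299 to 721 CPM at day 7, 343 to 389 CPM at day 14 and 276 to 1128 CPM at day 28. Adamts4 ranged from 36.8 to 190 CPM, 61.1 to 257 CPM, 66.1 to 114 CPM and 9.19 to 336 CPM at the same times. For both, the day 28 libraries lay in separate ranges by the kind of library code. Adamts1 was at 276, 301 and 340 CPM in the 3 letter-coded day 28 libraries and at 825 to 1128 CPM in the 4 number-coded ones. Adamts4 was at 9.19, 19.2 and 27.9 CPM in the first and at 157 to 336 CPM in the second.

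**Figure D3:**
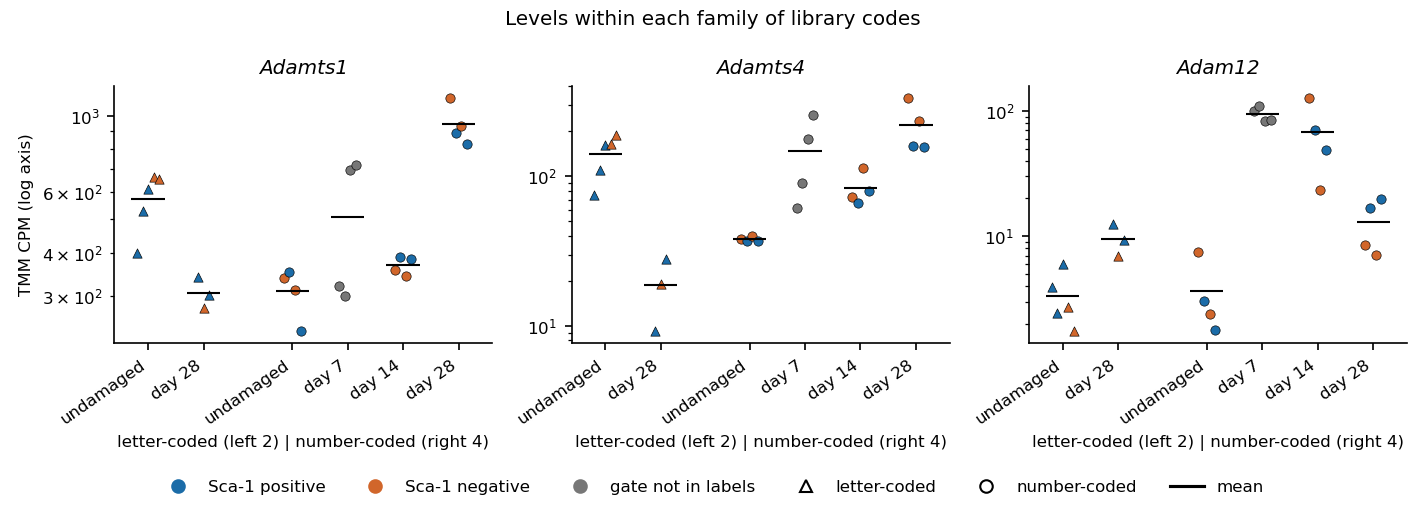
Adamts1, Adamts4 and, for comparison, Adam12 by time within each kind of library code (TMM CPM, log axis; each point is 1 library, lines are means, colour is the gate). For Adamts1 and Adamts4, letter-coded libraries sit above number-coded ones in undamaged hearts and below them at day 28.

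The undamaged libraries were divided the other way: Adamts1 was at 400 to 662 CPM in the 5 letter-coded and 236 to 352 CPM in the 4 number-coded ones, and Adamts4 at 74.9 to 190 and at 36.8 to 40.04 CPM. A fit over these 16 libraries, added after the values were seen, gave opposite directions at day 28. Adamts1 rose by 1.61 ± 0.18 among number-coded libraries (adjusted p = 2.64e-05) and was lower among letter-coded ones (-0.90 ± 0.19, adjusted p = 0.00591). The difference between the 2 was 2.51 ± 0.26 (adjusted p = 5.55e-06), where 11.7% of 13108 genes differed in this way. Adamts4 rose by 2.55 ± 0.33 in the first (adjusted p = 7.2e-05) and was lower in the second (-2.88 ± 0.37, adjusted p = 7.69e-05), a difference of 5.43 ± 0.49 (adjusted p = 1.31e-06). Without the E2 library, the other letter-coded day 28 libraries were at 276 and 301 CPM for Adamts1 and at 19.2 and 27.9 CPM for Adamts4, still below all number-coded ones. Adamts12 also differed between the 2 kinds (-1.74 ± 0.47, adjusted p = 0.0227), with neither kind called alone (-0.96, adjusted p = 0.075, and 0.78, adjusted p = 0.177). Adam12 had values of 1.84 (adjusted p = 0.0196) and 1.498 (adjusted p = 0.0621) in the number-coded and letter-coded libraries, and Adamts2 of 0.64 (adjusted p = 0.0258) and 0.59 (adjusted p = 0.0489). At day 7, where no library is letter-coded, Adamts4 was higher among number-coded libraries alone, at 61.1 to 257 CPM against 36.8 to 40.04 CPM without overlap (1.94 ± 0.35, adjusted p = 0.00141), and Adamts1 was 0.71 ± 0.25 (adjusted p = 0.0515). The number in the code goes with the time of the libraries, with 1 number each for undamaged, day 14 and day 28 and 2 for day 7, so among number-coded libraries the time and the number cannot be told apart. What sets the 2 kinds of library apart is not given in the labels.

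Genes of the early response to stimulation were measured beside Adamts1 and Adamts4. Of 8 such transcription factor and regulator genes, 4 differed between the 2 kinds of library in the direction of Adamts1 and Adamts4, where 11.7% of genes differed in either direction: Fosb by 2.46 ± 0.43 (adjusted p = 0.00109), Atf3 by 1.91 ± 0.24 (adjusted p = 4.63e-05), Nr4a1 by 1.84 ± 0.46 (adjusted p = 0.0134) and Junb by 1.76 ± 0.46 (adjusted p = 0.02). Fos, Jun, Egr1 and Ier2 were not called, and Fos had a value of -0.39 ± 0.22 (adjusted p = 0.271). Within number-coded libraries, where Adamts1 and Adamts4 rose, Fos (-0.79, adjusted p = 0.00307), Jun (-0.91, adjusted p = 0.0176) and Ier2 (-0.85, adjusted p = 0.0268) were lower at day 28 and Nr4a1 was higher (1.71, adjusted p = 0.00219). The summed level of the 8 was 24586 to 36131 CPM in letter-coded and 19231 to 22500 CPM in number-coded undamaged libraries, and 12336 to 23722 and 14009 to 26065 CPM at day 28. This list was added after the values were seen, and its part in the result was not tested. Among the number-coded day 7 libraries Adamts1 was at 320 and 299 CPM in 1A and 1B and at 696 and 721 CPM in 4A and 4B, so libraries of 1 kind also differed among themselves, along the number in their code. The summed level of the 8 genes was 13110 and 13420 CPM in 1A and 1B and 25228 and 26472 CPM in 4A and 4B.

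Levels can be compared between genes when divided by the exon length of each gene. Per kilobase, the undamaged order began with Adamts1 (85.8 ± 30.4 CPM per kb, SD, n = 9), Adamts5 (82.3 ± 5.95) and Adamts2 (58.6 ± 11.4), and ended with Adam12 (0.331 ± 0.187). Adamts1 and Adamts5 did not differ beyond their spread, and their order depended on the kind of code: Adamts1 had 108 ± 20.7 CPM per kb in the 5 letter-coded and 58.3 ± 9.70 in the 4 number-coded libraries, and Adamts5 81.4 ± 6.85 and 83.4 ± 5.37. Adamts4 (19.7 ± 13.2) and Adam19 (16.5 ± 4.98) came next and also overlapped. At day 7 Adamts2 led with 157 ± 34.3 CPM per kb (n = 6), 42.7% of the sum of the 10 genes against 21.4% before injury. Adamts5 went from 30.1% of that sum to 11.8%, and Adam12 from the lowest place to the seventh, at 7.81 ± 1.96 CPM per kb. At day 14 Adamts2 led with 112 ± 19.1 CPM per kb (n = 4), followed by Adamts1 (69.5 ± 4.12) and Adamts5 (65.7 ± 17.5), which overlapped. At day 28 the first 3 were Adamts1 (127 ± 66.9, n = 7), Adamts2 (87.5 ± 12.0) and Adamts5 (71.2 ± 14.5), with overlapping ranges. There Adamts1 was first in the 4 number-coded libraries (178 ± 24.5) and behind Adamts2 (94.9 ± 16.4) and Adamts5 (65.2 ± 19.5) in the 3 letter-coded ones (57.6 ± 6.06).

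**Figure D4:**
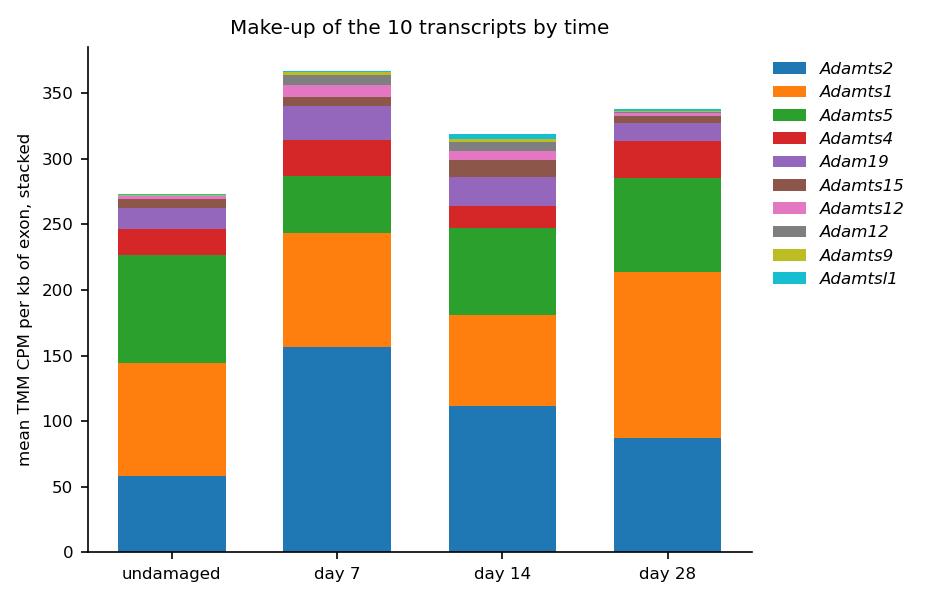
Stacked mean levels per kilobase of exon of the 10 genes at each time (TMM CPM per kb, linear axis from 0; each segment is the mean of a gene over the libraries of that time). The Adamts2 segment is 58.6 CPM per kb in undamaged hearts and 157 at day 7, and the Adamts5 segment 82.3 and 43.4.

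The sort by Sca-1 asked whether the 2 fractions of the stroma differ. In undamaged hearts 0 of 10 genes differed between the gates by edgeR, where 3.10% of 13812 genes did (1.65% higher and 1.45% lower) and 2231 genes had an unadjusted p under 0.05. Adamts15 was at 36.4, 25.4, 19.8, 66.5 and 70.7 CPM in the positive and at 97.5, 55.0, 134 and 88.7 CPM in the negative libraries. All but 1 of the negative libraries lay above all of the positive ones. Its log2 difference was -1.11 ± 0.33 (adjusted p = 0.0772). Adamtsl1 had 2.59 to 9.79 CPM in the positive and 10.8 to 20.99 CPM in the negative libraries, without overlap (-1.18 ± 0.41, adjusted p = 0.138). With the library code as a block, both were called lower in the positive gate: Adamts15 by -0.94 ± 0.22 (adjusted p = 0.0334) and Adamtsl1 by -0.90 ± 0.23 (adjusted p = 0.0483). DESeq2 (adjusted p = 0.0209) and limma-voom (adjusted p = 0.0471) also called Adamts15, and neither called Adamtsl1 (adjusted p = 0.0592 and 0.176). Adamts9 was at 4.70 to 8.31 CPM in the positive and 8.51 to 18.3 CPM in the negative libraries, also without overlap (-0.91 ± 0.34, adjusted p = 0.179), and Adamts2 was 0.40 ± 0.16 higher in the positive ones (adjusted p = 0.204). How many of all genes lacked overlap between the gates was not computed. Markers of mural cells moved with the gate: their 5 genes summed to 41.5 to 76.7 CPM in the positive and 147 to 303 CPM in the negative undamaged libraries, and their part in these values was not tested.

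**Figure D5:**
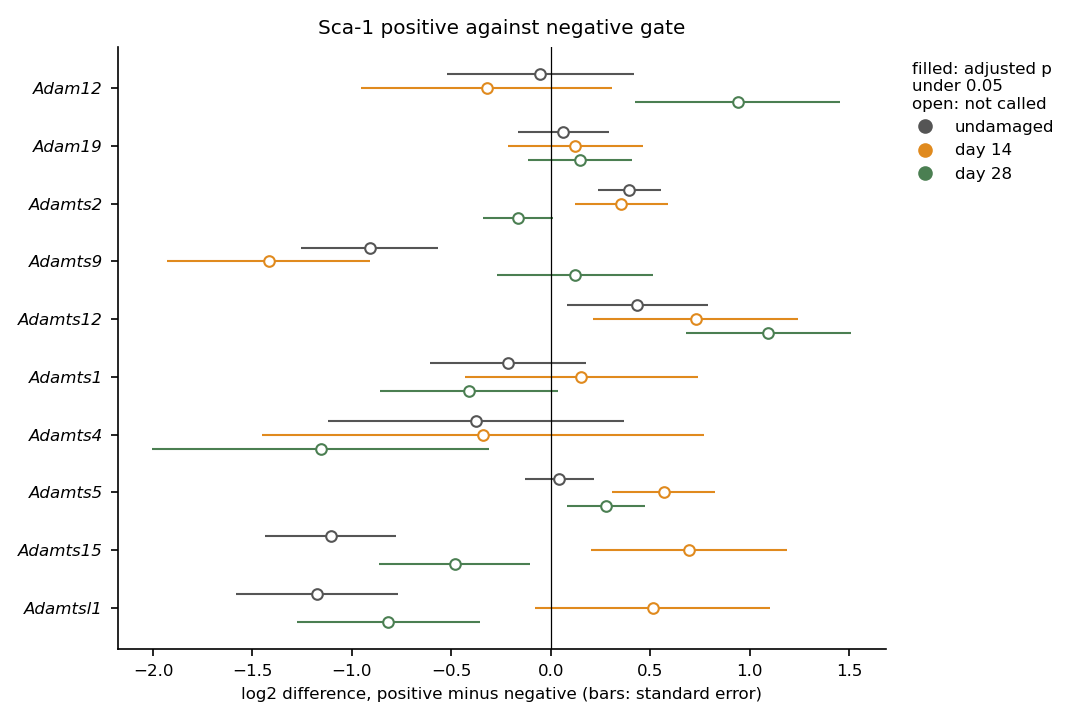
Log2 difference between Sca-1 positive and negative libraries for each gene in undamaged hearts and at days 14 and 28 (edgeR, bars are 1 SE; open points were not called). No point is filled; Adamts15 and Adamtsl1 have the lowest values in undamaged hearts.

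After injury no gate difference was called in the set either. At day 14 it was 0 of 10 where 0.0507% of genes were called and 257 had an unadjusted p under 0.05, and at day 28 it was 0 of 10 where 0.594% were called and 2027 had one. The value farthest from 0 at day 28 was that of Adamts4 (-1.16 ± 0.85, adjusted p = 0.554), whose libraries of both gates were divided by code as above. Adamts12 came next, with 49.2, 39.7, 20.3 and 18.7 CPM in the positive and 16.8, 19.4 and 8.20 CPM in the negative libraries (1.09 ± 0.42, adjusted p = 0.223). Adam12 (9.31 to 19.6 CPM in the positive, 6.94 to 8.50 CPM in the negative libraries, adjusted p = 0.412) and Adamts15 (42.6 to 52.4 and 56.0 to 82.4 CPM, adjusted p = 0.585) did not overlap between the gates at day 28 and were not called. The share of all genes without overlap was not computed, and groups this small can separate by chance. At day 7, with 1 library of each gate and no test, Adamts5 was at 426 CPM in the positive library (95% Poisson interval 415 to 436, counting error only) and at 260 CPM in the negative one (251 to 269). Adam12 was at 64.1 and 55.0 CPM and Adamts2 at 1864 and 1761 CPM. Over the 10 genes the log2 ratio of the positive to the negative library, with 0.5 CPM added to each, ran from -0.61 (Adamtsl1) to 0.71 (Adamts5). The same ratio was not computed over all genes.

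Within each gate the changes over time were tested again against undamaged libraries of that gate. In the positive gate 6 of 10 genes were higher at day 14, where 1.85% of genes were called (1.61% higher, 0.246% lower): Adam12 by 4.13, Adamtsl1 by 2.82 ± 0.47 (adjusted p = 0.00195), Adamts15 by 1.89 ± 0.39 (adjusted p = 0.0103), Adamts12 by 1.75, Adamts9 by 1.74 and Adamts2 by 0.94. In the negative gate 3 of 10 were higher, where 4.04% were called (3.02% higher, 1.02% lower): Adam12 by 4.40, Adamts9 by 2.25 and Adamts2 by 0.98. Adamts15 was 0.09 ± 0.43 in the negative gate (adjusted p = 0.956) and Adamtsl1 1.13 ± 0.50 (adjusted p = 0.272). Adamts12 was 1.45 ± 0.43 there (adjusted p = 0.0678), and DESeq2 (adjusted p = 0.0276) and limma-voom (adjusted p = 0.0385) called it. The test of the difference between the gates did not call either: 1.80 ± 0.60 for Adamts15 and 1.69 ± 0.72 for Adamtsl1, both with an adjusted p of 1, where 0 of all genes were called and 202 had an unadjusted p under 0.05. Each day 14 gate had 2 libraries. All of them are number-coded, while the undamaged positive E1, E3 and F3 libraries are letter-coded. In these Adamts15 was at 36.4, 25.4 and 19.8 CPM, against 66.5 and 70.7 CPM in the number-coded A6 and B7. Adamtsl1 was at 2.59, 4.65 and 7.73 CPM against 8.96 and 9.79 CPM. With number-coded libraries alone 3 of 10 genes were called in the positive gate. The part of the code in these rises was not tested. Without the positive D1 library only Adam12 and Adamts12 were called, and without the negative D1 library only Adam12. The Adamts12 rise in the positive gate dropped to 0.83 (adjusted p = 0.997) without the positive D9 library. At day 28 Adam12 was higher in the positive gate (2.08 ± 0.45, adjusted p = 0.0267, where 1.27% of genes were called, 1.03% higher and 0.239% lower) and Adamts2 in the negative gate (0.90 ± 0.18, adjusted p = 0.0149, where 1.06% were called, 0.818% higher and 0.246% lower). Neither difference between the gates was called at day 28 (0.99 ± 0.69 for Adam12 and -0.56 ± 0.24 for Adamts2, both with an adjusted p of 0.907), where 0 genes were called and 719 had an unadjusted p under 0.05. The Adam12 call was lost in 5 of 20 fits that left out 1 library (adjusted p of up to 0.0927), and the Adamts2 call without the negative E4 library (adjusted p = 0.0807).

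Of 39 other genes of the ADAM, ADAMTS and ADAMTS-like families, 25 had enough counts to be tested, and 7 were higher and 1 lower at day 7, where 11.5% of all genes were higher and 11.2% lower. Adamts16 was detected at 0.104 ± 0.312 CPM in undamaged hearts (SD, n = 9) and 15.1 ± 11.2 CPM at day 7 (n = 6), and Adamts17 at 0.689 ± 1.24 and 12.4 ± 5.16 CPM; their fitted differences of 6.94 ± 0.88 (adjusted p = 2.02e-06) and 4.20 ± 0.74 (adjusted p = 0.000147) start from a few counts. Adamts3, another procollagen N-proteinase, rose by 0.93 ± 0.26 (adjusted p = 0.0115), and Adamts7, which like Adamts12 can cut Comp, by 0.87 ± 0.21 (adjusted p = 0.00287). Adamtsl2, a non-catalytic protein of the microfibrils, went from 214 ± 62.7 to 419 ± 115 CPM (0.97 ± 0.20, adjusted p = 0.000976). Adamts6 rose by 0.92 ± 0.28 (adjusted p = 0.0175) and Adam23 by 1.45 ± 0.50 (adjusted p = 0.0372), and Adam22 was lower (-0.95 ± 0.28, adjusted p = 0.0153). At day 14 there were 4 higher and 0 lower, and at day 28 Adamts16 alone was called (4.17 ± 0.87, adjusted p = 0.00365).

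Among 6 tested inhibitors and clearance receptors of these proteases, 1 was higher and 3 lower at day 7, against the same 11.5% and 11.2% over all genes. Timp3, the tissue inhibitor known to block ADAMTS proteases, was at 2367 ± 523 CPM before injury and at 1339 ± 249 CPM at day 7 (-0.82 ± 0.16, adjusted p = 0.000498). Reck, a membrane-anchored inhibitor, was also lower (-0.63 ± 0.11, adjusted p = 0.00013), as was Timp4 (-2.19 ± 0.64, adjusted p = 0.0143) from a level of 2.73 ± 2.04 CPM. Timp1 was the one that rose, from 81.7 ± 57.3 to 292 ± 46.7 CPM (1.84 ± 0.38, adjusted p = 0.000941). By day 28 Reck (163 ± 26.7 CPM) and Timp3 (2154 ± 275 CPM) did not differ from undamaged by the test (adjusted p = 1 and 0.681).

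Of 15 tested activating enzymes and cofactors, 5 were higher and 1 lower at day 7 (11.5% and 11.2% over all genes). Furin, which removes the propeptide of most members, rose by 0.77 ± 0.15 (adjusted p = 0.00066), and Pcsk6, a related convertase, was lower (-0.75 ± 0.21, adjusted p = 0.0105). Fn1, fibronectin, which binds several ADAMTS proteases, rose by 4.25 ± 0.49 (adjusted p = 5.05e-07). B3glct, which adds glucose to the fucose on thrombospondin repeats, rose by 0.43 ± 0.13 (adjusted p = 0.0155).

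Of 9 tested proteoglycans and related substrates, 5 were higher and 1 lower at day 7 (11.5% and 11.2% over all genes). Acan, aggrecan, went from 0.212 ± 0.388 to 25.2 ± 20.6 CPM (6.85 ± 0.83 as fitted, adjusted p = 9.32e-07), and Fmod, fibromodulin, rose by 2.97 ± 0.68 (adjusted p = 0.0022). Dcn, decorin, was the lower one, from 18519 ± 2050.5 to 9250 ± 1435 CPM (-1.001 ± 0.15, adjusted p = 1.42e-05). Versican, the main substrate of the proteoglycan-cutting members, had a difference of 0.21 ± 0.35 (adjusted p = 0.715). Of 17 tested proteins shed or cut by ADAM proteases, 5 were higher and 4 lower, beside 11.5% and 11.2% of all genes. Nrg1, the neuregulin substrate of Adam19, was at 0.0637 ± 0.0814 CPM before injury and at 3.34 ± 1.91 CPM at day 7 (5.56 ± 0.69 as fitted, adjusted p = 1.56e-06). Sdc1, syndecan-1, rose by 1.36 ± 0.20 (adjusted p = 1.84e-05). Igfbp5, a binding protein cut by Adam12, was lower (-1.55 ± 0.28, adjusted p = 0.000192), as was Dll1 (-2.41 ± 0.60, adjusted p = 0.00434).

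Markers of other cell types also moved with time. At day 7 all 5 endothelial markers were lower, and their summed level was 23.4 to 28.5 CPM against 46.2 to 165 CPM in undamaged hearts. All 3 epicardial markers were higher, from 0 to 5.59 CPM in sum to 4.82 to 62.4 CPM at day 7 and 21.3 to 139 CPM at day 14. Of 5 macrophage markers 2 were higher, with sums of 0.243 to 14.0 and 11.7 to 23.2 CPM. Of 5 mural markers 1 was higher and none lower at day 7, and no cardiomyocyte or Schwann marker was called. Among the 5 fibroblast markers 1 was higher at day 7 (Col1a1) and 3 were lower, where 11.5% of all genes were higher and 11.2% lower. The highest epicardial sum, 139 CPM, was in the negative D1 library of day 14, which also had the highest Adamts9 (96.8 CPM) and the highest Adam12 (127 CPM) of all libraries. Other libraries differed from this. The next highest sum, 84.3 CPM, was in the negative B6 library of day 28, with Adamts9 at 17.1 and Adam12 at 7.11 CPM. Library 1A of day 7 had a sum of 4.82 CPM and Adam12 at 100 CPM. The part of these markers in the values of the 10 genes was not tested.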

How the data were processed

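RNA of sorted cardiac stromal cells was sequenced in pairs of reads on an Illumina NextSeq from stranded mRNA libraries, per the labels' protocols. The authors deposited whole-number counts per gene for each library. The submitters' processing notes name bcl2fastq, TopHat, Bowtie2, STAR, Cufflinks and mm10; the counting program, its strand setting and the annotation are not given in the sources used here. The lines for fragments in no gene (5.53 to 55.8% of fragments) and ambiguous fragments (0.128 to 0.646%) were left out. A count of 3 equals 0.0614 to 0.442 CPM, and intervals cover counting error only, since reads carry no molecular identifiers.

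The members and gene lists were chosen with earlier results of these data known. The counts were tested with edgeR 4.0.16 in R 4.3.3 (filterByExpr with a minimum count of 10, TMM factors, glmQLFit, two-sided quasi-likelihood test, Benjamini-Hochberg adjustment over all genes tested). Time was fitted over all 26 libraries (13392 genes) and gate by time over the 20 labelled libraries outside day 7 (13812 genes). The 4 day 7 libraries with no gate in their labels entered the time fit alone. All 10 members are named whether called or not, and of each other list the called genes with the smallest adjusted p at day 7, at most 6 of each list of family genes and 4 of the other lists. Positive and negative libraries with the same code deviated together (Pearson correlation of their deviations across genes 0.184 to 0.412 over 7 pairs). Letter-coded pairs with different codes had 0.196 to 0.389, and number-coded ones of undamaged hearts and day 28 had 0.0536 to 0.113. At day 14, with 2 libraries of each gate, the values of both pairs are equal by construction. The fits as reported took all libraries as separate, and the code was a block in alternative fits only. No 2 libraries agreed within sampling noise. Alternatives were DESeq2 1.42.0, limma-voom (limma 3.58.1), RLE factors, no low-count filter, the code as a block, 1 kind of code alone, and each library left out. The scripts were tested on simulated data. Sites were searched in GENCODE transcripts of GRCm38 as H-E-x-x-H-x-x-G or N-x-x-H.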

Additional observations from a re-analysis of the deposited data

Results flagged for a closer look

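Each of the 10 genes was examined in each group of 4 to 10 libraries, by time or by time and gate. In 5 of these 70 tests 1 library stood far from the rest of its group, where chance alone does so in about 1 in 20 tests. The tests share libraries, since a gate group lies within its time. At day 14 Adamts9 was 96.8 CPM in the negative D1 library, with the next at 29.1 CPM, and Adamts12 was 143 CPM in the positive D9 library, with the next at 64.8 CPM. At day 28 Adam19 was 139 CPM in the positive F2 library (next 103 CPM) and Adamts15 was 82.4 CPM in the negative B4 library (next 59.4 CPM). Among the positive day 28 libraries Adamts2 was 937 CPM in F2, with the next at 735 CPM.

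The day 28 difference from undamaged was not the same in number-coded and letter-coded libraries for 3 genes, by a test of the difference itself over 16 libraries. The log2 difference between the 2 kinds was 2.51 for Adamts1, 5.43 for Adamts4 and -1.74 for Adamts12.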

How the results depend on the processing

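For members called as reported, 947 values under the alternatives comprised 895 that kept direction and call, 52 that lost the call and 0 that reversed. Most of these values came from fits that left out 1 library, often one outside the groups compared. Their share kept is therefore not comparable with the count that follows. For members not called as reported, 34 of 857 values (leave-outs aside) were called, 15 of them of Adamts1 or Adamts4, and 7 of these had the opposite sign; at day 28 letter-coded libraries alone gave -0.92 for Adamts1 (0.56 as reported) and -2.90 for Adamts4 (0.51 as reported). The count of called members at day 28 against undamaged (2) was 1 without the 3 undamaged libraries in which the fewest genes were detected, 5 with number-coded libraries alone and 1 with limma-voom and the replicate block. From day 7 to day 14 (0) it was 1 under DESeq2, limma-voom and without those 3 libraries. Between gates in undamaged hearts (0) it was 1 under DESeq2, limma-voom and letter-coded libraries alone, and 2 with the replicate block. In the positive gate it was 3 with number-coded libraries alone at day 14 (6), and at day 28 (1) it was 0 with limma-voom with or without the replicate block, 2 with number-coded and 4 with letter-coded libraries. In the negative gate at day 28 (1) it was 2 and 3 with number-coded and letter-coded libraries. For each value that changed, the cause was not tested. Besides the gate values in undamaged hearts, limma-voom with the replicate block lost the call of Adam12 at day 28 over both gates. With and without the block, limma-voom lost the calls of Adam12 at day 28 in the positive gate and of Adamts9 from day 7 to day 28, and called Adamts12 at day 14 in the negative gate (with the block 1.59, adjusted p = 0.0339). The block changed no other call.

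With 1 library left out the count ranged from 6 to 6 at day 7, 5 to 6 at day 14, 2 to 2 at day 28, 0 to 1 from day 7 to day 14, 4 to 6 from day 7 to day 28, and 0 to 1 between gates in undamaged hearts. It ranged from 2 to 6 and 1 to 4 at day 14 and from 0 to 1 and 0 to 1 at day 28 in the positive and negative gates. Where 1 library was left in a group, it was assumed to vary like the other groups.

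Over all genes, the number called moved by more than 1.5 times in these cases: day 7 against undamaged, 3048 and 1335 (gate as a term); day 14, 1203 and 1979 (without the 3 libraries); day 28, 722 and 259 (limma-voom with replicate block) or 1514 (number-coded); day 14 against day 7, 2 and 0 (number-coded) or 133 (DESeq2); day 28 against day 7, 1557 and 535 (gate as a term) or 2685 (without the 3 libraries). Between gates it was 428, 212 (number-coded) and 824 (DESeq2) in undamaged hearts, 7 and 60 (replicate block) at day 14, and 82, 24 (letter-coded) and 404 (DESeq2) at day 28. Within the positive gate it was 256, 120 (number-coded) and 520 (without the 3 libraries) at day 14, and 175, 66 (limma-voom) and 1905 (letter-coded) at day 28. Within the negative gate it was 558 and 914 (limma-voom with replicate block) at day 14, and 147, 82 (limma-voom) and 594 (number-coded) at day 28. For the difference between gates it was 0 and 2 at day 14, and 0 and 4 at day 28, both under DESeq2. At day 14 all libraries are number-coded and have 2 codes, which limits what a single library leaves.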

Other observations

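Adamts13, the protease of von Willebrand factor, had 212 counts (24.3 CPM) in the positive B6 library of day 28 and no count in the other libraries. Of the 39 other family genes, 6 had no count in any library and 13 had a mean under 1 CPM at each time. In undamaged hearts 3 other family genes were higher in the Sca-1 positive gate, Adamtsl3, Adamtsl4 and Papln, and Adamts17 was lower. These 4 were named after their values were seen.

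The 4 day 7 libraries whose labels give no gate fell into separate clusters by Ly6a, with 296 CPM in 1A, 35.9 CPM in 1B, 334 CPM in 4A and 31.7 CPM in 4B. Adamts5 was at 808, 548, 487 and 283 CPM in these libraries, in the same order. They were assigned to no gate.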
